A study of Homo sapiens with 16 samples.

Results

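The comparison of tumors treated with both drugs against vehicle tumors is described here across the transcriptome, with weight on genes and functions that rose and on functions other than cell division and cell death. It covered 8 of the 16 tumors of the series, and 12913 of the 23260 gene symbols of the deposited table, namely those that reached 1 FPKM in 4 or more of these 8 tumors. FPKM is the number of sequenced fragments of a gene set against its transcript length and the size of the library. Tumors came from A375, a human melanoma line with mutant BRAF, grown under the skin of each flank in NOG mice, a strain with almost no lymphocytes. All were taken on day 5, from 2 mice a group with 2 tumors each. Other groups had JQ1 (J) or Vemurafenib (V) alone at these doses. Control mice (2 and 5) received vehicle, and J+V mice (33 and 34) received JQ1 at 50 mg/kg daily and Vemurafenib at 25 mg/kg per dose, all by intraperitoneal injection. The model is 1 cell line, and each mouse gave a pair of tumors. The p-values measure the spread between tumors within groups, pooled over all 16 tumors of the series, and rest on 2 mice a group. Values per tumor are given throughout in the order 2L, 2R, 5L and 5R for control and 33L, 33R, 34L and 34R for J+V, the letter being the flank.

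JQ1 displaces the BET proteins, readers of acetylated histones that help RNA polymerase leave the start of genes. Vemurafenib blocks mutant BRAF, the kinase that keeps the MAPK cascade and its transcription factors of the AP-1 and ETS families active in these cells. Melanocytes arise from the neural crest, a lineage they share with the Schwann cells that wrap nerves. Melanoma cells under MAPK inhibition are known to move along this lineage, toward melanocyte, neural crest or dedifferentiated states, and to alter their lipid and energy metabolism.

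The melanoma label was checked against 10 marker genes, of which 7 passed the filter. SOX10, S100A1, S100B, MITF, MLANA, TFAP2A and CSPG4 were measured, while PMEL, TYR and DCT, which make the pigment organelle and melanin, stayed below 0.5 FPKM in all 8 tumors. None of the 10 endothelial and none of the 8 lymphoid markers passed the filter. Some markers of other tissues were higher at low levels. These were MYH1 and MYH2 of skeletal muscle (log2 fold changes 0.52 and 0.67, adjusted p = 0.0106 and 0.00251), the 2 tested of 6. LPL of fat cells was also higher (log2 fold change 0.70, adjusted p = 0.0151), 1 of 2 tested of 6. MYH2 was below 1 FPKM in every control tumor and passed the filter through the J+V tumors alone. Its difference is therefore given as a description. MYH1 was not called without mouse 34 or mouse 5, or with all tumors scaled to a common FPKM sum. LPL was not called without control tumor 5L, mouse 33 or mouse 5. The other muscle markers, ACTA1, CKM, MB and TNNT3, stayed below 0.5 FPKM in all 8 tumors. Over all symbols the sum of FPKM ran from 970443.4 to 1281006.3 in control and 1223331.0 to 1406985.7 in J+V tumors, of which small nucleolar RNAs took 36.5% to 47.1% and 47.7% to 55.1%. The number of reads behind a value is unknown, so no counting error is given. Tumor 34L stood apart from the other 3 J+V tumors in several of the genes named here, and control tumor 5R from the other controls.

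Of the 12913 genes, 2200 were higher in J+V than in control tumors (17.0%) and 2713 were lower (21.0%) at a Benjamini-Hochberg adjusted p below 0.05 in limma. The median log2 fold change was -0.03 over all genes tested, 0.53 over the higher and -0.51 over the lower genes. The filter let in 68 genes with no control tumor at 1 FPKM, of which 65 were higher, and 32 with no J+V tumor at 1 FPKM, of which 31 were lower, and such a gene had to differ to be tested. At least a 2-fold difference was found in 201 higher and 323 lower genes. The 4 J+V tumors lay above all 4 control tumors in 1695 genes (13.1%) and below them in 2167 (16.8%). Genes named below for the largest changes were required to show no overlap, so their separation is part of the choice. Without mouse 33 the test called 1233 genes higher and 1637 lower, and without control tumor 5L 1511 and 1942. When all tumors were scaled to a common FPKM sum, the median of all genes moved to -0.22, and 823 genes were higher and 4654 lower, so that 84.97% of the calls were lower against 55.2% here. In bulk tumors a smaller number of cells of a type and less RNA per cell cannot be told apart.

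Lists of genes by function were read against these shares. Cadherin, complement, melanocyte, neural crest, insulin, matrix and lysosome lists had a larger share of higher genes than 17.0%. Lists for the proteasome, sterols, mitochondria and RNA processing had a larger share of lower genes than 21.0%, and all 52 tested genes of the cell cycle list fell (median log2 fold change -1.31). The lists were chosen with results of these tumors known, so their shares describe these tumors. Counts of a list under another setting are to be read against those of all 12913 genes there. These were 1233 higher and 1637 lower without mouse 33, 2184 and 2321 without mouse 5, and 823 and 4654 under a common sum.

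**Figure D1:**
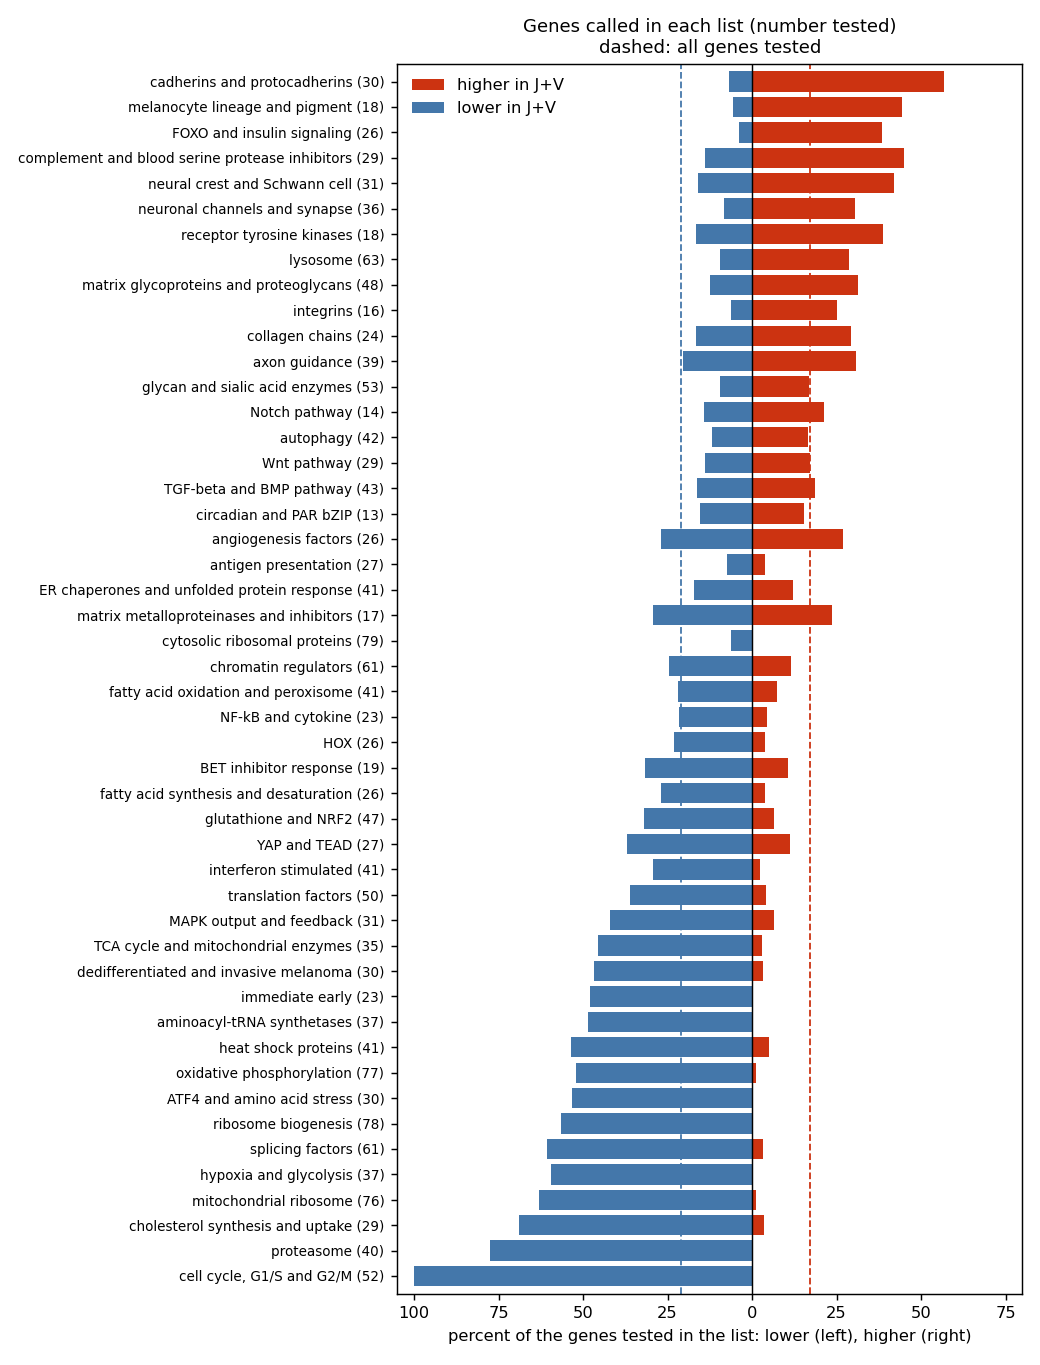
Percent of the genes tested in each of 48 lists that were higher (red, right) or lower (blue, left) in J+V than in control tumors, with the number tested in brackets. Dashed lines mark the shares over all 12913 genes, 17.0% higher and 21.0% lower. Cadherins and protocadherins stand furthest to the right and the cell cycle list furthest to the left.

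Genes of the neural crest and Schwann cell lineage were among those that rose most. Of this list, 13 of the 31 genes tested rose and 5 fell (median log2 fold change 0.22). CDH19, a cadherin of Schwann cell precursors at chr18:64168320-64271375 (hg19), stood at 33.96, 18.4, 20.9 and 29.1 FPKM in the control tumors and at 132, 167, 139.8 and 153 FPKM in the J+V tumors (log2 fold change 2.55, SE 0.243, adjusted p = 1.87e-05). The lowest J+V tumor was well above the highest control tumor, and the choice of this gene required groups without overlap. S100B, a calcium-binding protein used to stain Schwann cells and melanoma, was 17.7, 12.7, 14.1 and 22.2 FPKM in control and 63.7, 62.5, 37.1 and 55.1 FPKM in J+V tumors (log2 fold change 1.68, SE 0.196, adjusted p = 3.85e-05). Tumor 34L was the lowest of the J+V tumors in S100B and still above every control tumor, as the choice of S100B required.

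ERBB3, the neuregulin receptor that the Schwann lineage depends on, rose from 15.05, 11.4, 12.3 and 19.9 FPKM to 38.1, 51.7, 35.9 and 30.03 FPKM (log2 fold change 1.38, SE 0.165, adjusted p = 4.28e-05). ID4, an inhibitor of basic helix-loop-helix factors, was 3.24 ± 2.195 FPKM in control and 10.7 ± 2.01 FPKM in J+V tumors (SD, n = 4; log2 fold change 1.71, adjusted p = 0.000346). RXRG, a retinoid X receptor known from drug-tolerant melanoma cells, was at 0.945, 0.5805, 0.561 and 0.952 FPKM in control and 2.47, 2.65, 4.11 and 2.84 FPKM in J+V tumors (log2 fold change 1.48, adjusted p = 0.000168). RXRG passed the filter on low values through the J+V tumors alone, so its difference is given as a description. Other members of the list fell: MSX1, a homeobox factor of the early crest, from 12.9, 15.9, 17.004 and 8.91 FPKM to 1.95, 2.32, 2.8002 and 3.11 FPKM (log2 fold change -2.20, adjusted p = 3.60e-05), and SOX9, a factor of crest and cartilage, from 8.29, 15.4, 13.2 and 13.1 FPKM to 2.98, 2.96, 7.14 and 4.31 FPKM (log2 fold change -1.47, adjusted p = 0.00114). The groups of MSX1 and SOX9 did not overlap.

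In the melanocyte list 8 of the 18 genes tested rose and 1 fell (median log2 fold change 0.33), among them EDNRB, the endothelin receptor of melanoblasts (log2 fold change 0.95, adjusted p = 0.000363), and MLANA, the melanosome antigen (log2 fold change 0.55, adjusted p = 0.0132). ERBB3 and S100B stand in both lists. CDK2, a cell cycle kinase that MITF is known to drive in melanocytes, was the member that fell (log2 fold change -0.88, adjusted p = 4.17e-05). MITF itself, the melanocyte master factor, stood at 7.06, 8.57, 9.28 and 8.16 FPKM and 9.34, 8.82, 12.8 and 8.47 FPKM and did not pass the test (adjusted p = 0.214). Without mouse 33 the list held 4 higher genes and under a common sum 5, and MLANA was lost in both. Of the list for dedifferentiated and invasive melanoma 1 of the 30 genes tested rose and 14 fell (median log2 fold change -0.35), with 0 higher and 7 lower without mouse 33 and 4 higher and 12 lower without mouse 5. AXL, a receptor kinase of that state, was 17.4, 32.97, 19.4 and 7.65 FPKM in control and 5.101, 4.98, 10.2 and 5.85 FPKM in J+V tumors (log2 fold change -1.39, adjusted p = 0.01104), groups that overlapped through control tumor 5R and J+V tumor 34L, and its call was lost without control tumor 5L, mouse 2 or mouse 33. PLAUR, the urokinase receptor, fell without overlap from 18.4, 23.2, 23.4 and 23.8 FPKM to 4.64, 3.78, 7.803 and 8.65 FPKM (log2 fold change -1.82, adjusted p = 2.52e-05).

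**Figure D2:**
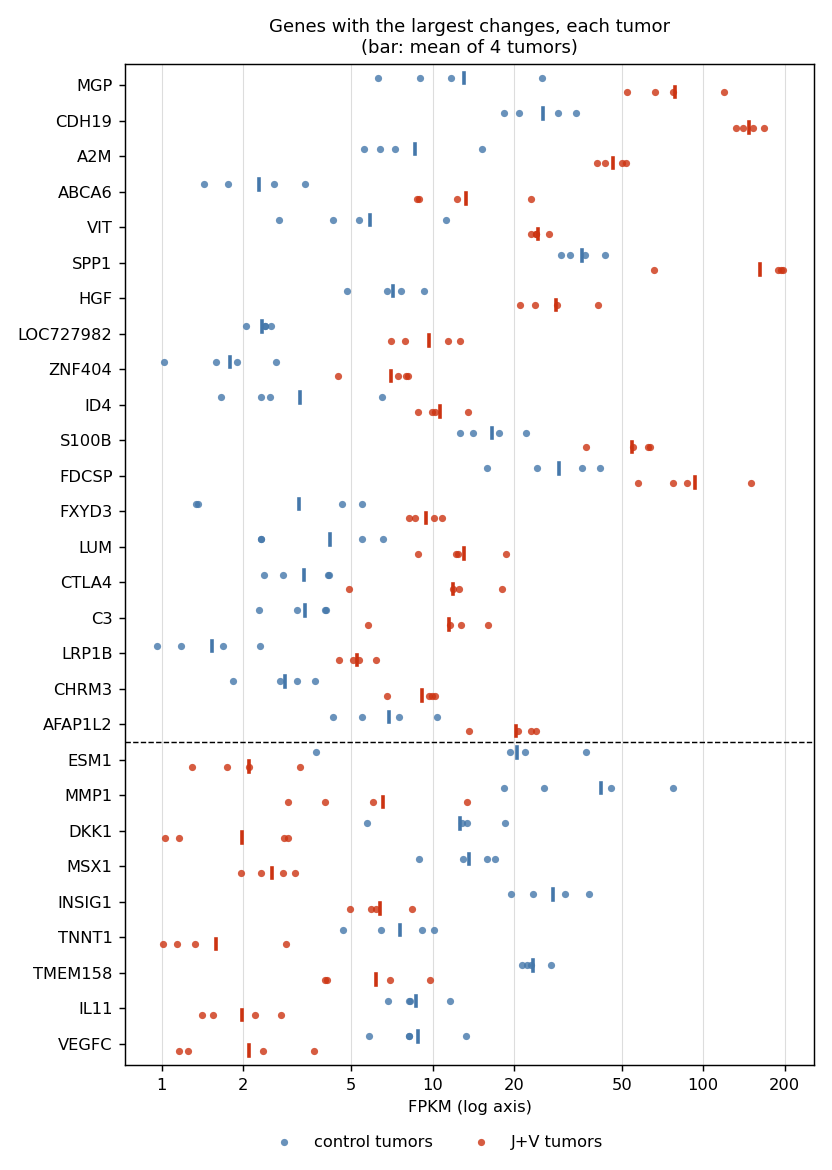
FPKM (log axis) of 19 higher genes (above the dashed line) and 9 lower genes (below it) among those with the largest changes, 1 point per tumor for the 4 control (blue) and 4 J+V tumors (red), with a bar at each mean. In each gene the groups do not overlap, as the choice of genes required, and SPP1 shows 1 J+V tumor (34L, 65.7 FPKM) far below the other 3.

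MGP, the matrix Gla protein that blocks calcification, rose most of the genes named here. It stood at 9.02, 6.301, 11.7 and 25.3 FPKM in control and 66.1, 52.2, 119 and 77.2 FPKM in J+V tumors (log2 fold change 2.66, SE 0.3401, adjusted p = 6.92e-05), a 6.33-fold change. SPP1, osteopontin, stood at 32.3, 29.9, 36.5 and 43.4 FPKM and 197, 194, 65.7 and 189 FPKM (log2 fold change 2.05, SE 0.312, adjusted p = 0.000226), tight in 3 J+V tumors and far lower in 34L. VIT, vitrin, a matrix protein with von Willebrand domains, rose from 5.37, 2.71, 4.27 and 11.2 FPKM to 23.1, 24.1, 26.9 and 24.1 FPKM (log2 fold change 2.13, SE 0.343, adjusted p = 0.000343). Control tumor 5R was the highest of the controls in MGP, SPP1 and VIT. Of the list of matrix glycoproteins and proteoglycans 15 of the 48 genes tested rose and 6 fell (median log2 fold change 0.24). VCAN, the large proteoglycan versican and 1 of them, was at 60.5, 57.1, 57.3 and 77.5 FPKM and 174, 159.8, 134 and 149 FPKM (log2 fold change 1.29, adjusted p = 2.46e-05).

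LUM and DCN, small leucine-rich proteoglycans that bind collagen fibrils and that mark fibroblasts, also rose. LUM was 2.32, 2.32, 6.54 and 5.51 FPKM and 12.2, 8.82, 18.6 and 12.4 FPKM (log2 fold change 1.61, adjusted p = 0.000705). DCN was 1.45, 2.12, 3.55 and 10.8 FPKM and 13.98, 5.92, 19.8 and 12.02 FPKM (log2 fold change 1.67, adjusted p = 0.0105), with overlap through 5R, and was not called in the means of each mouse, nor without control tumor 5L, mouse 2 or mouse 34. They were the 2 of 9 tested fibroblast markers that passed, and COL1A1, COL1A2, COL3A1, PDGFRA, FAP, POSTN and DPT did not. The 3 markers tested for pericytes included CSPG4, which melanoma cells also make. The FPKM of the 10 fibroblast markers summed to 45.1 to 135 in control and 70.96 to 129.5 in J+V tumors. Of 3 pericyte and smooth muscle markers tested, RGS5 rose from 6.34, 4.75, 6.04 and 4.68 FPKM to 9.09, 9.66, 35.97 and 11.7 FPKM (log2 fold change 1.29, adjusted p = 0.005303), with 34L far above the rest, and ACTA2 was also called (log2 fold change 0.44, adjusted p = 0.0452) but lost the call in 13 of the 27 alternatives. The sources used here do not say whether host reads were taken out, and the part of these cells in the matrix result was not tested.

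Of the 24 collagen chain genes tested 7 rose (29.2%) and 4 fell (16.7%), against 17.0% higher and 21.0% lower of all genes. COL16A1, a fibril-associated chain, was 1.72 ± 0.262 FPKM in control and 4.31 ± 1.13 FPKM in J+V tumors (SD, n = 4; log2 fold change 1.09, adjusted p = 0.000102). COL4A2, a basement membrane chain, fell from 39.3, 37.002, 37.5 and 68.7 FPKM to 21.6, 24.2, 31.2 and 23.8 FPKM (log2 fold change -0.81, adjusted p = 0.00152), as did the transmembrane collagen COL13A1 (log2 fold change -1.28, adjusted p = 0.00156). Among metalloproteinases, MMP16, a membrane-bound enzyme, rose from 63.3, 42.6, 56.1 and 49.9 FPKM to 94.5, 101, 106 and 92.5 FPKM (log2 fold change 0.90, adjusted p = 0.000157). MMP1, interstitial collagenase, fell from 25.8, 18.4, 45.8 and 77.2 FPKM to 4.002, 2.93, 6.01 and 13.4 FPKM (log2 fold change -2.58, SE 0.415, adjusted p = 0.000343).

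Complement proteins and blood protease inhibitors also rose: 13 of the 29 genes tested rose and 4 fell (median log2 fold change 0.33). A2M, the broad protease inhibitor alpha-2-macroglobulin, stood at 6.41, 5.61, 7.24 and 15.2 FPKM in control and 40.5, 49.9, 52.01 and 43.5 FPKM in J+V tumors (log2 fold change 2.47, SE 0.254, adjusted p = 2.00e-05). C3, the central complement protein, was 4.02, 3.17, 2.28 and 4.04 FPKM and 12.7, 16.1, 5.76 and 11.6 FPKM (log2 fold change 1.58, SE 0.269, adjusted p = 0.000514). SERPINA3, antichymotrypsin, was 57.7, 40.1, 28.3 and 64.004 FPKM and 91.1, 133, 91.2 and 138 FPKM (log2 fold change 1.29, adjusted p = 0.00127). In these 3 genes every J+V tumor lay above every control tumor, as the choice of A2M and C3 required. SERPINE2, protease nexin, was already abundant and rose from 597, 428, 619 and 894 FPKM to 1268, 1279, 1305 and 1323 FPKM (log2 fold change 1.08, adjusted p = 0.000436). In the other direction TFPI2, a Kunitz-type inhibitor, fell from 53.6, 40.1, 71.5 and 60.2 FPKM to 20.4, 21.6, 28.7 and 34.5 FPKM (log2 fold change -1.08, adjusted p = 0.00117). Under a common sum 6 members were higher and 5 lower. Macrophages and liver cells are the usual sources of complement. C1QA, C1QB and MRC1, 3 of the 10 macrophage markers, were listed at 0 in all 8 tumors. LYZ ran from 0.259 to 3.82 FPKM and CSF1R from 0.239 to 0.437 FPKM, and neither passed the filter. Host macrophages would be mouse cells, so a human symbol at 0 does not show that they were absent. CD68 and AIF1, the 2 of 10 macrophage markers tested, did not pass, but CD68 lay higher without overlap (20.3, 18.2, 16.7 and 20.6 FPKM in control, and 21.5, 23.8, 21.3 and 21.7 FPKM in J+V tumors), and 1 of the 2 was called higher with upper quartile or quantile scaling. The part of macrophages in the complement result was not tested.

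Cadherins and protocadherins, which hold like cells together and help neurons tell themselves apart, had the highest share of higher genes of all lists: 17 of the 30 genes tested rose and 2 fell (median log2 fold change 0.43). Beside CDH19, PCDH18 rose from 2.03, 2.53, 3.699 and 6.95 FPKM to 9.17, 7.496, 10.6 and 8.12 FPKM (log2 fold change 1.24, adjusted p = 0.000997). CDH3, P-cadherin, fell from 1.39, 1.33, 1.46 and 1.301 FPKM to 0.982, 0.668, 0.267 and 0.961 FPKM (log2 fold change -0.66, adjusted p = 0.00527), and had passed the filter through the control tumors alone. PCDH17 was the other lower member (log2 fold change -0.47, adjusted p = 0.0255), a call lost in 7 of the 27 alternatives. The count was 9 higher without mouse 33 and 9 under a common sum. Many members lie in 1 locus, the protocadherin beta array, a row of short genes without introns on chromosome 5. Of the 82 symbol families with at least 15 genes tested, PCDHB had the highest share of higher genes, 11 of 16, with none lower. PCDHB3 and PCDHB19P were below 1 FPKM in every control tumor and passed the filter through the J+V tumors alone, and PCDHB1, PCDHB4 and PCDHB8 were not tested, so the share is a description of the genes that passed. Along the array, from PCDHB2 to PCDHB15, the called genes were PCDHB3, PCDHB7, PCDHB16, PCDHB9, PCDHB10, PCDHB12, PCDHB13, PCDHB14, PCDHB19P and PCDHB15, beside PCDHB18, which was not placed.

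PCDHB14 went from 2.08, 1.56, 2.09 and 3.55 FPKM to 4.502, 4.65, 4.15 and 4.24 FPKM (log2 fold change 0.84, adjusted p = 0.000717) and PCDHB10 from 1.13, 0.747, 1.43 and 1.88 FPKM to 2.804, 3.65, 2.49 and 2.27 FPKM (log2 fold change 0.90, adjusted p = 0.00167). PCDHB6, in the same row, gave 1.64, 1.41, 1.15 and 1.61 FPKM and 1.22, 1.299, 1.3002 and 0.898 FPKM and did not pass (adjusted p = 0.15005). These genes are close copies of each other, so fragments may have been split between them, and the values of the tested and placed genes ran from 0.422 to 7.31 FPKM. Adjacent genes of this kind are not independent.

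**Figure D3:**
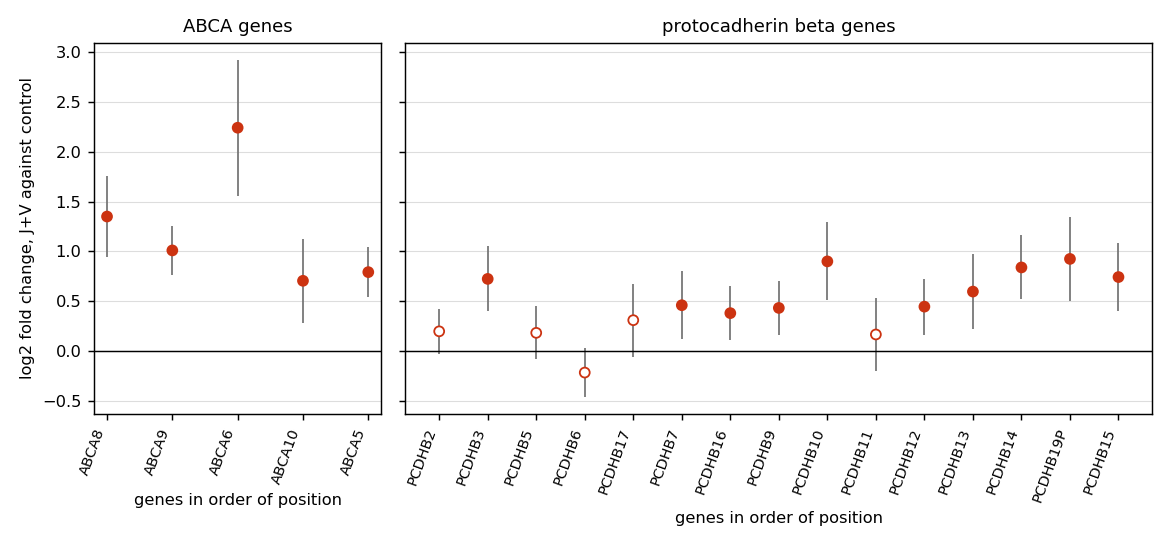
Log2 fold change of J+V against control for 5 adjacent ABCA genes on chromosome 17 and for the 15 tested and placed protocadherin beta genes on chromosome 5, in order of position, with 95% intervals of the limma test. Filled points passed the test: all 5 ABCA genes and 10 of the 15 PCDHB genes, while PCDHB6 lay below 0 without passing.

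Genes that neurons use for excitation and wiring rose more often than the background. In the list of channels and synapse genes 11 of the 36 genes tested rose and 3 fell (median log2 fold change 0.20). GRIK2, a kainate receptor subunit, was 2.48, 2.53, 1.65 and 1.28 FPKM and 6.34, 7.31, 4.86 and 4.66 FPKM (log2 fold change 1.35, adjusted p = 7.64e-05), and GRIA2, an AMPA receptor subunit, was 3.76, 2.81, 5.17 and 2.91 FPKM and 8.48, 8.64, 6.86 and 9.34 FPKM (log2 fold change 1.11, adjusted p = 0.000439). STX1A, a syntaxin of vesicle release, fell from 10.1, 9.72, 9.62 and 14.1 FPKM to 3.84, 3.93, 5.02 and 4.79 FPKM (log2 fold change -1.21, adjusted p = 1.95e-05). Outside the list CHRM3, the M3 muscarinic acetylcholine receptor, rose from 2.73, 1.83, 3.15 and 3.68 FPKM to 6.801, 9.93, 9.68 and 10.2 FPKM (log2 fold change 1.54, SE 0.181, adjusted p = 3.92e-05). The groups of each of these genes were apart, as the choice of CHRM3 required. Of 39 axon guidance genes tested 12 rose (30.8%) and 8 fell (20.5%), against 17.0% higher and 21.0% lower of all genes. The list had 7 higher and 5 lower genes without mouse 33 and 4 higher and 14 lower under a common sum. SEMA3C, a secreted semaphorin, was at 65.04, 47.8, 64.4 and 56.4 FPKM and 159, 156, 121 and 132 FPKM (log2 fold change 1.28, SE 0.1101, adjusted p = 1.36e-05). EPHA2, an ephrin receptor of the same list, fell from 8.27, 12.6, 10.3 and 7.43 FPKM to 1.96, 1.43, 5.05 and 3.12 FPKM (log2 fold change -1.67, adjusted p = 0.000824).

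Growth factors went both ways. HGF, the ligand of MET known to protect melanoma cells from BRAF inhibitors, was 9.32, 4.84, 7.68 and 6.77 FPKM in control and 21.1, 23.9, 40.8 and 28.9 FPKM in J+V tumors (log2 fold change 1.92, SE 0.325, adjusted p = 0.000485). FGF1 rose from 4.22, 3.94, 6.03 and 5.62 FPKM to 9.03, 9.8999, 6.995 and 10.8 FPKM (log2 fold change 0.83, adjusted p = 0.0003695) and PDGFD from 2.19, 2.05, 1.85 and 2.56 FPKM to 4.48, 4.21, 5.94 and 3.92 FPKM (log2 fold change 0.94, adjusted p = 0.0001004). VEGFC, the lymphatic growth factor, fell from 8.19, 8.17, 13.3 and 5.85 FPKM to 1.25, 1.16, 3.66 and 2.37 FPKM (log2 fold change -1.89, SE 0.346, adjusted p = 0.000811). The angiogenesis list had 7 higher and 7 lower of 26 genes, 26.9% each, against 17.0% higher and 21.0% lower of all genes. Under a common sum it had 4 higher and 10 lower. Among receptor tyrosine kinases 7 of the 18 genes tested rose and 3 fell, with ERBB3 the largest rise. That list had 3 higher and 2 lower genes in a fit of the 8 tumors alone, 3 higher and 0 lower without mouse 33 and 4 higher and 6 lower under a common sum. Integrin ITGA9, a receptor for osteopontin and tenascin, rose from 1.14, 1.05, 1.32 and 2.27 FPKM to 5.68, 7.99, 3.31 and 3.47 FPKM (log2 fold change 1.49, adjusted p = 0.000238).

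CTLA4, the checkpoint receptor best known from T cells, stood at 4.12, 2.8005, 2.38 and 4.14 FPKM in control and 11.9, 12.5, 4.93 and 18.1 FPKM in J+V tumors (log2 fold change 1.58, SE 0.294, adjusted p = 0.0008999). All 4 J+V tumors were above the controls, as the choice of CTLA4 required. Of 8 lymphoid markers, 4 were listed at 0 in all 8 tumors, and the 8 summed to 0.369 to 1.25 FPKM in control and 0.262 to 0.786 FPKM in J+V tumors, below CTLA4 alone. TRAF1, an adaptor of TNF receptors, rose from 1.39, 0.905, 0.585 and 1.405 FPKM to 3.15, 4.18, 5.92 and 4.62 FPKM (log2 fold change 1.67, adjusted p = 5.16e-05) while IL11 and LIF, cytokines of the IL-6 family, fell. IL11 went from 6.83, 8.26, 11.6 and 8.19 FPKM to 1.54, 1.41, 2.205 and 2.76 FPKM (log2 fold change -1.90, SE 0.193, adjusted p = 1.95e-05). Other genes with large rises were FDCSP, a small secreted peptide first found in follicular dendritic cells, at 41.6, 15.9, 24.3 and 35.7 FPKM and 57.2, 77.3, 149.8 and 87.5 FPKM (log2 fold change 1.64, adjusted p = 0.00768; not called without mouse 34), FXYD3, a regulator of the sodium pump (log2 fold change 1.62, adjusted p = 0.00158), the giant lipoprotein receptor LRP1B (log2 fold change 1.55, adjusted p = 3.60e-05) and the adaptor AFAP1L2 (log2 fold change 1.53, adjusted p = 0.000105).

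Insulin and FOXO signaling genes rose more often than they fell: 10 of the 26 genes tested rose and 1 fell (median log2 fold change 0.26). FOXO factors switch on stress and fasting genes when insulin signaling is low. FOXO1 itself rose from 2.11, 1.97, 1.53 and 2.75 FPKM to 5.83, 5.67, 3.31 and 4.64 FPKM (log2 fold change 1.04, SE 0.178, adjusted p = 0.000521). DEPTOR, an inhibitor of the growth kinase mTOR, rose from 5.34, 3.25, 4.17 and 5.71 FPKM to 13.6, 13.9, 10.8 and 10.3 FPKM (log2 fold change 1.32, SE 0.1903, adjusted p = 0.000159). SESN3, a FOXO target that restrains mTORC1, rose from 38.3, 28.1, 25.4 and 39.5 FPKM to 78.4, 69.6, 41.7 and 62.04 FPKM (log2 fold change 0.92, adjusted p = 0.00247). In each of these genes the groups were apart, with 34L among the 2 lowest J+V tumors. PDK4, a kinase that inhibits pyruvate dehydrogenase, was 30.4, 24.01, 20.7 and 21.8 FPKM and 58.5, 53.4, 26.9 and 54.003 FPKM (log2 fold change 0.93, adjusted p = 0.00524), with 34L inside the control range. Its call was lost without mouse 33 or mouse 5. IRS1, the insulin receptor substrate, was the 1 member that fell (log2 fold change -0.45, adjusted p = 0.0269), a call lost in 9 of the 27 alternatives. Without mouse 33 the list had 4 higher genes, and under a common sum 6 higher and 4 lower.

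TXNIP, which holds back glucose uptake and thioredoxin, was 60.2, 76.9, 58.5 and 85.3 FPKM in control and 143, 165, 102 and 129 FPKM in J+V tumors (log2 fold change 0.93, SE 0.182, adjusted p = 0.00126). Its relative ARRDC4 was 3.58, 3.55, 2.71 and 3.03 FPKM and 6.88, 6.62, 4.52 and 4.98 FPKM (log2 fold change 0.74, SE 0.127, adjusted p = 0.000546). Both genes are known targets of the glucose-sensing factor MondoA, which binds paired E-box-like elements, so the promoter of TXNIP is shown. It is the 250 bases before a RefSeq start at chr1:145996580-145996829 (GRCh38, minus strand), 5′ to 3′, with capitals for a pair of CACGAG 5 bases apart, the bases between included, searched on both strands.
TXNIP: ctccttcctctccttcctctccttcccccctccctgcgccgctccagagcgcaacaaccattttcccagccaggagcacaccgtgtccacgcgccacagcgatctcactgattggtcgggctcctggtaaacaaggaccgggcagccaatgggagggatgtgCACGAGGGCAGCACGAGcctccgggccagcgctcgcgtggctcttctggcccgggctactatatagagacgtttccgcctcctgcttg
The pair lies 88 to 72 bases before the start. The window of a second RefSeq start of TXNIP, chr1:145995745-145995994, holds no such pair. The pair was found in 0.00732% of 27305 genes with such a window, and in 0.0708% of 1412 higher, 0.0499% of 2006 lower and none of 5413 other tested genes. TXNIP alone makes up the share of higher genes. The pair searched for is the one in its own promoter, so that match adds no information. The groups of 1412 and 2006 genes are smaller than the 2200 higher and 2713 lower genes called. Shares this small rest on too few genes to compare the groups.

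Genes of cholesterol supply fell and several of lipid export rose. Cells take up and make cholesterol through SREBP factors, and export it through LXR factors, which sense oxidised sterols. In the cholesterol synthesis and uptake list 1 of the 29 genes tested rose and 20 fell (median log2 fold change -0.85). INSIG1, the sterol-regulated anchor of the SREBP system, was 30.9, 37.8, 23.5 and 19.5 FPKM in control and 6.21, 4.96, 8.43 and 5.94 FPKM in J+V tumors (log2 fold change -2.03, SE 0.204, adjusted p = 1.95e-05). Every J+V tumor was below every control tumor. STARD4, a sterol carrier, fell from 24.9, 24.5, 22.4 and 10.8 FPKM to 5.87, 3.51, 5.21 and 6.19 FPKM (log2 fold change -1.85, adjusted p = 4.17e-05), and HMGCS1, an early enzyme of the mevalonate pathway, from 48.9, 71.7, 50.04 and 25.7 FPKM to 15.8, 14.2, 20.4 and 17.1 FPKM (log2 fold change -1.43, adjusted p = 0.000452). SCD and FADS1, desaturases of fatty acids, also fell (log2 fold changes -1.18 and -1.41, adjusted p = 0.000112 and 6.92e-05). GGPS1, the 1 member of the cholesterol list that rose (log2 fold change 0.19, adjusted p = 0.0327), makes the geranylgeranyl group, and its sign turned under a common sum.

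ABCA1, the pump that loads cholesterol onto apolipoprotein, was 2.47, 2.05, 2.98 and 5.74 FPKM in control and 9.497, 10.4, 8.69 and 9.21 FPKM in J+V tumors (log2 fold change 1.47, SE 0.202, adjusted p = 0.0001103). MYLIP, a ubiquitin ligase that LXR factors are known to induce, was 2.63, 1.99, 2.58 and 4.4001 FPKM and 8.47, 8.86, 9.71 and 7.81 FPKM (log2 fold change 1.48, SE 0.153, adjusted p = 2.12e-05). Neither gene's groups overlapped, although control tumor 5R was the highest control in both. NR1H3, LXR alpha, was 3.502, 4.65, 4.78 and 7.29 FPKM and 7.68, 8.71, 5.97 and 8.01 FPKM (log2 fold change 0.57, adjusted p = 0.008396), overlapped, and lost its call in 6 of the 27 alternatives, among them a common sum and leaving out control tumor 5L, mouse 2 or mouse 33. APOD, a carrier of small lipids, rose from 58.7, 40.8, 49.8 and 81.7 FPKM to 133, 141, 106 and 139.6 FPKM (log2 fold change 1.20, adjusted p = 0.000707). These 4 genes were chosen after their values were seen.

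The promoters of ABCA1 and INSIG1, 1 gene of each direction, are shown because of the LXR and E-box type motifs in them. Each is the 250 bases before a RefSeq start, 5′ to 3′ along the gene, at chr9:104928156-104928405 (minus strand) and chr7:155297628-155297877 (plus strand) of GRCh38. Capitals mark, on either strand, a pair of TNACC 5 bases apart, in the spacing that LXR elements use, with the bases between, and the E-box CACGTG, searched without regard to overlap.
ABCA1: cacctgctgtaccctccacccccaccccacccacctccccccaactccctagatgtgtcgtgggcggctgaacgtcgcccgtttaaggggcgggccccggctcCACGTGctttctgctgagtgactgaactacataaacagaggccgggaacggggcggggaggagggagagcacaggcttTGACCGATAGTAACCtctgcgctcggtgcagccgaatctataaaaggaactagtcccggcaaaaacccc
INSIG1: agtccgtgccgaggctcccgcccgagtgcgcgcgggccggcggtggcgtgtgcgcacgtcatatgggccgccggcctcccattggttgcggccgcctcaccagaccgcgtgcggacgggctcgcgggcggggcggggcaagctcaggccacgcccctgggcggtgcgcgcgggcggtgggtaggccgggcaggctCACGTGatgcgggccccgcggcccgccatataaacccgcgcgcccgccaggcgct
The TNACC pair lies 69 to 55 bases and the E-box 147 to 142 bases before the start of ABCA1, and the E-box of INSIG1 lies 55 to 50 bases before its start. The TNACC pair was found in 0.670% of the 27305 genes with such a window and in 0.496% of higher, 0.449% of lower and 0.665% of other tested genes. The E-box was in 7.73% of the 27305 genes and in 9.84%, 11.4% and 11.4% of these 3 groups. These are matches of letters and not shown to be bound.

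A row of 5 lipid transporter genes on chromosome 17 rose together. ABCA8, ABCA9, ABCA6, ABCA10 and ABCA5 lie next to each other on the minus strand, from position 66863430 to 67323385 (hg19). The row was chosen after its values were seen. ABCA6 changed most, from 1.76, 1.44, 2.59 and 3.37 FPKM to 8.89, 8.74, 23.1 and 12.3 FPKM (log2 fold change 2.24, SE 0.321, adjusted p = 0.000152), highest in mouse 34. ABCA8 was 4.004, 2.76, 3.32 and 5.45 FPKM and 9.59, 10.6, 13.2 and 8.73 FPKM (log2 fold change 1.35, adjusted p = 0.000148), ABCA9 1.15, 0.807, 1.18 and 0.972 FPKM and 2.29, 2.33, 3.08 and 2.59 FPKM (log2 fold change 1.01, adjusted p = 3.53e-05), and ABCA5 5.78, 5.104, 6.02 and 4.13 FPKM and 9.35, 8.84, 10.1 and 9.26 FPKM (log2 fold change 0.79, adjusted p = 0.000213). In these 4 genes the groups did not overlap, as the choice of ABCA6 required. ABCA10, whose annotated span overlaps that of ABCA5 at 1 end, was 1.002, 0.395, 1.099 and 0.572 FPKM and 1.03, 1.302, 2.505 and 1.46 FPKM (log2 fold change 0.70, adjusted p = 0.0116), and was not called in the 8 tumors alone or without mouse 34.

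**Figure D4:**
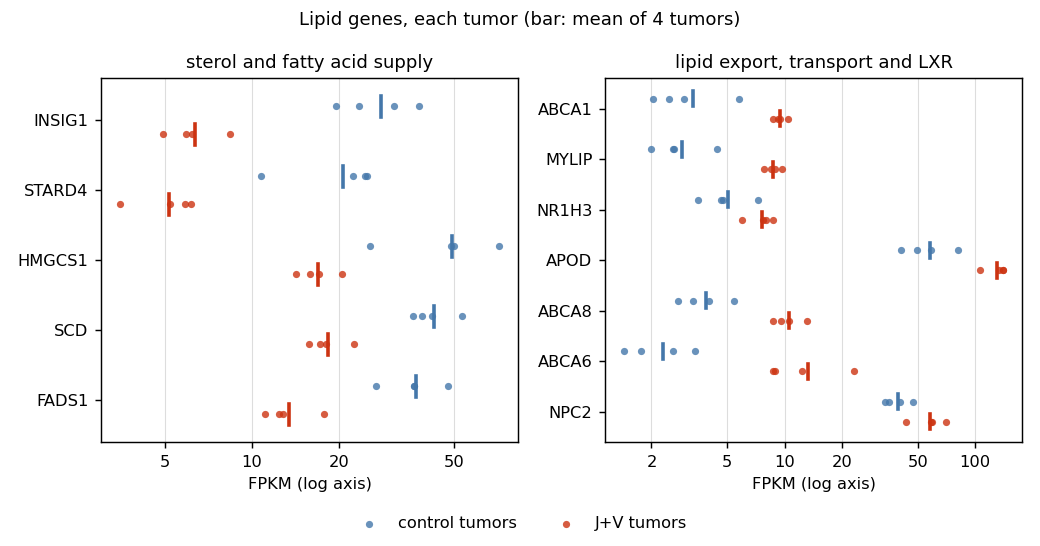
FPKM (log axis) per tumor of 5 genes of sterol and fatty acid supply (left) and 7 genes of lipid export, transport and LXR (right), 4 control (blue) and 4 J+V tumors (red), with a bar at each mean. On the left every J+V tumor lies below every control tumor; on the right J+V tumors lie higher, with overlap in NR1H3 and NPC2.

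Lysosome genes rose in 18 and fell in 6 of 63 cases, with a small median log2 fold change 0.13. The largest rises were in the proteases CTSO, from 6.35, 5.42, 8.87 and 11.9 FPKM to 18.6, 16.1, 14.97 and 17.2 FPKM (log2 fold change 1.05, adjusted p = 0.00127), and CTSF (log2 fold change 0.88, adjusted p = 0.00451; not called without mouse 33), and in the sugar hydrolase MANBA, from 13.2, 11.2, 10.8 and 12.8 FPKM to 24.1, 25.4, 18.3 and 20.7 FPKM (log2 fold change 0.85, SE 0.111, adjusted p = 8.07e-05). NPC2, which hands cholesterol out of the lysosome, was 35.1, 47.2, 33.7 and 40.5 FPKM and 58.7, 59.4, 43.4 and 70.03 FPKM (log2 fold change 0.55, adjusted p = 0.00723), with overlap through 34L, and lost its call in 4 alternatives. CTSL1 and CTSS, other cathepsins, fell, CTSL1 from 43.5, 39.8, 44.2 and 45.4 FPKM to 31.5, 24.2, 25.7 and 33.1 FPKM (log2 fold change -0.60, adjusted p = 0.000572). The list depended on mouse 33, with 5 higher genes without it, and under a common sum its median turned to -0.03 with 7 higher and 15 lower. In the autophagy list 7 of the 42 genes tested rose and 5 fell, so that 16.7% were higher against 17.0% of all genes and 11.9% lower against 21.0%. It had 3 higher and 4 lower genes without mouse 33 and 1 higher and 10 lower under a common sum. The higher ones included the autophagosome coat proteins MAP1LC3A, GABARAP and GABARAPL1 (log2 fold changes 0.71, 0.56 and 0.55), which lost their calls in 1, 5 and 3 of the 27 alternatives. The lower ones included ATG4B and ATG4D, the proteases that trim those coats (-0.68 and -0.85). ATG4D was 1.42, 1.41, 1.32 and 1.79 FPKM in control and 0.606, 0.584, 0.531 and 0.676 FPKM in J+V tumors, and passed the filter through the control tumors alone.

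Zinc finger genes, the largest family of human repressors, were more often higher than lower. Of 459 tested ZNF genes, 176 rose (38.3%) and 29 fell (6.32%). ZNF404 changed most, from 1.89, 1.02, 2.64 and 1.58 FPKM to 8.09, 7.48, 4.46 and 7.97 FPKM (log2 fold change 1.73, SE 0.248, adjusted p = 0.0001502), and ZNF334 went from 2.04, 1.96, 2.79 and 1.19 FPKM to 6.27, 5.17, 4.73 and 5.06 FPKM (log2 fold change 1.25, adjusted p = 0.0005699). Many ZNF genes sit in arrays on chromosome 19. There 104 of 221 rose (47.1%) and 11 fell, while of the 549 other protein-coding genes tested on that chromosome 27 rose (4.92%) and 221 fell (40.3%). On other chromosomes 67 of 229 ZNF genes rose (29.3%) and 18 fell. Family members share sequence, so their fragments may be split between copies.

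The span of a gene in the genome also ordered the calls. Among 11528 protein-coding genes placed once in GENCODE, the share of higher genes was 9.50%, 11.3%, 14.7%, 17.6% and 26.3% from the shortest to the longest of 5 equal classes. The share of lower genes was 27.0%, 28.6%, 25.3%, 19.8% and 14.1%. Median spans were 59.3 kb for higher, 26.4 kb for lower and 34.9 kb for other genes. Leaving out zinc finger genes changed little, with 9.18% higher in the shortest and 26.3% in the longest class. In the longest class 25.6% were higher among genes below the median mean level of 10.1 FPKM and 27.1% among the rest, and in the shortest class 11.4% and 7.28%. The shares are a description, since genes are not replicates.

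**Figure D5:**
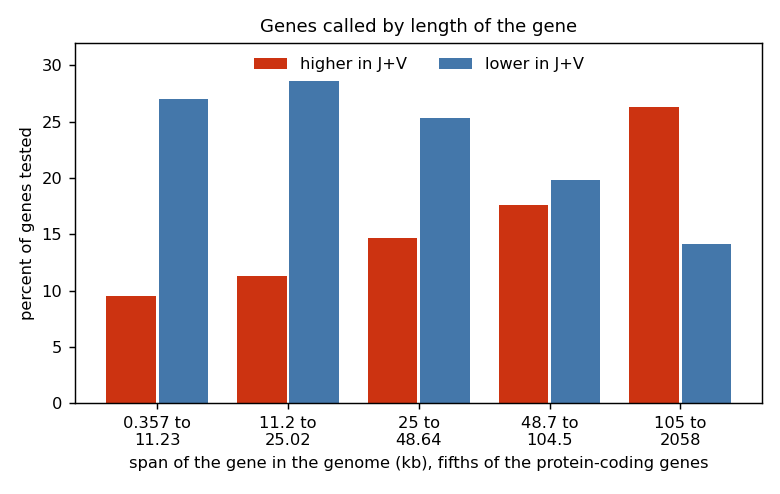
Percent of protein-coding genes tested that were higher (red) or lower (blue) in J+V than in control tumors, by 5 equal classes of the span of the gene from first to last annotated base, in kb. Higher genes go from 9.50% in the shortest class to 26.3% in the longest and lower genes from 27.0% to 14.1%.

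Noncoding genes were more often higher than lower. Of 198 long noncoding RNAs tested 57 rose (28.8%) and 9 fell, and of 159 pseudogenes 56 rose (35.2%) and 7 fell. Of 328 short noncoding RNAs 46 rose (14.0%) and 10 fell (3.05%). Over all genes 17.0% were higher and 21.0% lower, so the short RNAs had a smaller share of higher genes than that. MALAT1, an abundant RNA held in the nucleus, stood at 586, 473, 616 and 507 FPKM in control and 1561, 1903, 1445 and 1369 FPKM in J+V tumors (log2 fold change 1.52, SE 0.198, adjusted p = 8.02e-05). NEAT1, the scaffold of paraspeckles, was 31.7, 23.4, 29.9 and 25.8 FPKM and 40.6, 67.8, 48.2 and 65.2 FPKM (log2 fold change 0.97, adjusted p = 0.00742). LOC727982 and FLJ35282, unnamed loci, were also higher, LOC727982 at 2.52, 2.04, 2.402 and 2.41 FPKM and 11.4, 12.6, 7.0003 and 7.95 FPKM (log2 fold change 1.81, adjusted p = 3.26e-05). Libraries were made from total RNA after removal of ribosomal RNA, so nuclear RNA was not removed by selection. MALAT1 and NEAT1 were chosen after their values were seen.

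Outside cell division, the lists with many lower genes were those of protein breakdown, mitochondria, energy and RNA processing. Of 40 proteasome genes tested 31 fell and none rose (median log2 fold change -0.45). PSMA7, a core subunit, was 185, 222, 212 and 215 FPKM in control and 115, 99.005, 132 and 139 FPKM in J+V tumors (log2 fold change -0.79, adjusted p = 0.000411). In the mitochondrial ribosome 48 of 76 genes fell (median log2 fold change -0.38), with MRPS5 at 24.3, 28.6, 27.1 and 26.04 FPKM and 16.7, 13.1, 16.05 and 15.97 FPKM (log2 fold change -0.76, adjusted p = 3.52e-05). In both genes every J+V tumor lay below every control tumor. Respiratory chain genes fell in 40 of 77 cases (median log2 fold change -0.33), TCA cycle and related enzymes in 16 of 35 and hypoxia and glycolysis genes in 22 of 37 (median log2 fold change -0.46). FH, fumarase, went from 82.7, 101, 91.9 and 88.7 FPKM to 57.8, 49.8, 60.3 and 65.2 FPKM (log2 fold change -0.64, adjusted p = 0.000418). Without mouse 33 the proteasome, mitochondrial ribosome and respiratory chain lists had 18, 24 and 22 lower genes, and the TCA cycle and hypoxia lists 8 and 13.

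Splicing factors fell in 37 of 61 cases and rose in 2, with SNRPB, a core protein of the spliceosome, at 88.9, 123, 123 and 136 FPKM and 51.02, 52.9, 60.1 and 65.4 FPKM (log2 fold change -1.02, adjusted p = 0.000433). Ribosome biogenesis factors fell in 44 of 78. Of the cytosolic ribosomal proteins 5 of 79 were lower and none higher (median log2 fold change -0.08), although quantile normalization called 19 lower and 3 higher, and a common sum 24 lower. Amino acid stress genes driven by ATF4 fell in 16 of 30 (median log2 fold change -0.49) and tRNA synthetases in 18 of 37. SLC7A5, the leucine carrier, was 3.65, 7.2003, 3.95 and 2.52 FPKM and 0.844, 0.633, 1.22 and 1.14 FPKM (log2 fold change -1.66, adjusted p = 0.000405). MTHFD2, a mitochondrial folate enzyme, was 62.5, 77.1, 66.1 and 53.7 FPKM and 26.7, 26.7, 33.1 and 37.05 FPKM (log2 fold change -1.06, adjusted p = 4.93e-05). Heat shock proteins fell in 22 of 41 cases. Without mouse 33 the lower genes numbered 22 in ribosome biogenesis, 9 among tRNA synthetases and 12 among heat shock proteins. EIF4A2, a helicase of translation that is often high in resting cells, rose from 247, 229, 265 and 295 FPKM to 439, 423, 322 and 459.9 FPKM (log2 fold change 0.66, SE 0.116, adjusted p = 0.000622).

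The 10 lower genes with the largest changes included several secreted factors. ESM1, an endothelial proteoglycan that tumor cells can secrete, was 22.04, 19.4, 36.8 and 3.71 FPKM in control and 1.74, 1.29, 2.11 and 3.25 FPKM in J+V tumors (log2 fold change -2.70, SE 0.484, adjusted p = 0.000705), with control tumor 5R close to the J+V range. DKK1, a Wnt inhibitor, fell from 13.5, 18.6, 12.8 and 5.73 FPKM to 1.03, 1.16, 2.92 and 2.82 FPKM (log2 fold change -2.40, SE 0.344, adjusted p = 0.000152). TMEM158, a membrane protein induced by RAS, fell from 22.3, 21.4, 23.2 and 27.4 FPKM to 4.002, 4.08, 9.79 and 6.96 FPKM (log2 fold change -1.92, adjusted p = 5.16e-05), and TNNT1, a slow muscle troponin, from 10.1, 9.13, 4.69 and 6.44 FPKM to 1.32, 1.14, 2.88 and 1.01 FPKM (log2 fold change -1.98, adjusted p = 5.16e-05). In the MAPK output and feedback list 2 of the 31 genes tested rose and 13 fell (median log2 fold change -0.32), with 2 higher and 6 lower without mouse 33. FOSL1, an AP-1 subunit, went from 34.9, 59.5, 39.4 and 31.8 FPKM to 8.01, 7.21, 19.4 and 13.1 FPKM (log2 fold change -1.82, SE 0.279, adjusted p = 0.000244), highest among J+V tumors in 34L. DUSP6, the phosphatase that MAPK output is often read by, was 117, 113, 117 and 151 FPKM and 95.8, 100.4, 109.6 and 145 FPKM and did not pass (adjusted p = 0.354). In the BET inhibitor response list 2 of the 19 genes tested rose and 6 fell (median log2 fold change -0.05). Of its genes MYC (log2 fold change -0.05, adjusted p = 0.807) and HEXIM1 (log2 fold change -0.11, adjusted p = 0.434) did not pass. SERPINI1, neuroserpin, another member, was higher (log2 fold change 0.54, adjusted p = 0.0288), a call lost in 9 of the 27 alternatives. MKI67, the proliferation marker, fell from 27.8, 30.01, 27.4 and 22.1 FPKM to 10.3, 9.52, 21.5 and 14.1 FPKM (log2 fold change -0.99, adjusted p = 0.00129).

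In the interferon list 12 of 41 genes fell (median log2 fold change -0.34), and the control mice differed. Without control mouse 5 the list had 5 higher and 1 lower genes. ISG15, a ubiquitin-like interferon product, was 7.67, 6.94, 22.4 and 25.3 FPKM in control and 5.21, 3.35, 2.57 and 4.79 FPKM in J+V tumors (log2 fold change -1.66, adjusted p = 0.00432), with both tumors of control mouse 5 far above mouse 2, and was not called without mouse 5. GBP2, a guanylate-binding protein induced by interferon gamma, was the member that rose, from 12.3, 6.99, 9.64 and 16.7 FPKM to 22.6, 23.03, 21.6 and 21.9 FPKM (log2 fold change 1.002, adjusted p = 0.000824). Antigen presentation genes had 1 higher and 2 lower of 27, and 5 higher and 1 lower without mouse 5. The Wnt, TGF-beta and Notch lists went both ways, with 5 higher and 4 lower of 29, 8 and 7 of 43, and 3 and 2 of 14. The higher shares of 17.2%, 18.6% and 21.4% were near the 17.0% of all genes. The TGF-beta list had 2 higher and 3 lower genes without mouse 33, and under a common sum the Wnt and TGF-beta lists had 3 higher and 8 lower, and 3 higher and 13 lower. In the Wnt list LEF1, a nuclear partner of beta-catenin, rose from 52.6, 37.1, 43.4 and 56.6 FPKM to 115, 127, 60.3 and 109 FPKM (log2 fold change 1.08, adjusted p = 0.000874). Chromatin regulators fell in 15 and rose in 7 of 61 cases. These were 24.6% lower against 21.0% of all genes, and 11.5% higher against 17.0%. Under a common sum 23 fell and 1 rose, where 4654 of all 12913 genes fell and 823 rose. In this list EZH2, the polycomb methyltransferase, was 21.7, 26.9, 26.1 and 21.2 FPKM and 9.54, 8.35, 12.3 and 12.5 FPKM (log2 fold change -1.14, adjusted p = 2.22e-05) and KAT2B, an acetyltransferase, was 8.72, 8.25, 9.199 and 8.52 FPKM and 14.1, 13.3, 13.5 and 12.2 FPKM (log2 fold change 0.59, adjusted p = 9.22e-05).

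Tumors given 1 drug are set beside these values for several genes. The comparisons share the J+V tumors with the comparison above, and the genes were chosen on it. CDH19 averaged 48.04 ± 15.6 FPKM in J and 41.1 ± 14.03 FPKM in V tumors (SD, n = 4), with J+V above J (adjusted p = 0.000395) and above V (adjusted p = 0.000677). MGP averaged 32.5 ± 4.56 FPKM in J and 22.4 ± 7.74 FPKM in V tumors, and J+V was above J (adjusted p = 0.0167) and V (adjusted p = 0.00437). LUM was at 11.5 ± 1.51 FPKM in J tumors, and its difference between J+V and J did not pass (adjusted p = 0.752). ESM1 averaged 17.3 ± 4.703 FPKM in J tumors, above J+V (adjusted p = 0.00106), and 4.18 ± 2.23 FPKM in V tumors, where the difference from J+V did not pass (adjusted p = 0.283). INSIG1 averaged 15.9 ± 2.68 FPKM in J and 15.3 ± 3.72 FPKM in V tumors, and J+V was below both (adjusted p = 0.000666 and 0.00236).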

How the data were processed

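RNA was measured in 16 A375 xenograft tumors as total RNA libraries after ribosomal RNA depletion. The authors deposited 1 table of FPKM per gene symbol, made with TopHat and Cufflinks on hg19. The sources used here give no versions, no depth and no step for mouse reads. The study itself tested read counts. Here log2(FPKM + 0.5) of the 12913 genes was fitted with limma 3.58.1 (R 4.3.3), with 4 group terms over all 16 tumors and mouse as a block (consensus correlation -0.07, 12 residual degrees of freedom), and called at a Benjamini-Hochberg adjusted p below 0.05, two-sided. Fold changes are on this scale and understate low genes. On simulated data for J+V against control, over the same 12913 genes, calls were made for 46 of 67 genes with a 1.5-fold change, for 61 of 67 at 2-fold and for 64 of 66 at 4-fold. Of all 189 calls there, 18 were on genes that had not been changed. The simulated tumors shared no mouse, and far fewer genes were changed than were called in the data. These rates need not hold for the real tumors.

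Named genes were the 20 higher and 10 lower with the largest changes, a mean of at least 5 FPKM in the higher group and no overlap (short RNAs left out of both, cell cycle and HIST genes out of the lower), up to 3 higher and 2 lower per list, fixed genes (DUSP6, MYC, HEXIM1, SERPINI1, MKI67, MITF), and leading members of symbol families. A few genes that this rule names are not reported here. ABCA1, ABCA5, ABCA8, ABCA9, ABCA10, MYLIP, NR1H3, APOD, MALAT1, NEAT1, ARRDC4, TXNIP, HMGCS1, STARD4, RXRG, VCAN, SESN3, NPC2, EDNRB and SERPINE2 were chosen after their values were seen, as were the protocadherin genes of the array. Members and lists were chosen with earlier results of these data known. Positions are from GENCODE 44 lifted to GRCh37 (93.8% of genes matched once), and promoters from RefSeq GRCh38. The 27 alternatives changed pseudocount, filter, scaling, block, tumors and moderation.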

Additional observations from a re-analysis of the deposited data

Results flagged for a closer look

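The values below are FPKM in 1 tumor that stood apart from the other 3 of its group by Dixon's criterion for 4 samples. Of 482 pairs of a gene and a group, 38 met it, where chance gives about 5% of them. J+V tumor 34L gave 13 of them and control tumor 5R 12. No explanation was tested. Tumor 34L lay above the other J+V tumors in TNNT1 at 2.88 (others 1.01 to 1.32), SPRED1 at 64.8 (others 49.6 to 51.3), SEMA3E at 3.35 (others 1.87 to 2.03), AXL at 10.2 (others 4.98 to 5.85) and EGFR at 4.12 (others 1.45 to 1.68). The same tumor also lay above them in FST at 6.05 (others 0.879 to 1.42), HES1 at 17.996 (others 12.7 to 13.5), BOP1 at 4.94 (others 4.19 to 4.24) and RGS5 at 35.97 (others 9.09 to 11.7). Tumor 34L lay below the other J+V tumors in SPP1 at 65.7 (others 189 to 197), ZNF404 at 4.46 (others 7.48 to 8.09), PDK4 at 26.9 (others 53.4 to 58.5) and RORB at 12.3 (others 18.9 to 19.98). Tumor 5R lay above the other control tumors in A2M at 15.2 (others 5.61 to 7.24), PDGFRB at 5.996 (others 2.35 to 2.62), ZCCHC24 at 16.4 (others 10.2 to 10.9), COL4A2 at 68.7 (others 37.002 to 39.3) and ITGA5 at 18.8 (others 11.7 to 12.7). The same tumor also lay above them in CTSF at 25.3 (others 10.6 to 12.4), GABARAP at 203 (others 113 to 120.4), SSR4 at 39.1 (others 23.9 to 25.5), FKBP5 at 14.2 (others 9.701 to 10.4) and STX1A at 14.1 (others 9.62 to 10.1). The same tumor also lay above them in DUSP6 at 151 (others 113 to 117) and VCAN at 77.5 (others 57.1 to 60.5).

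Tumor 2L stood apart in PLAUR (below), at 18.4 against 23.2 to 23.8. Tumor 2R stood apart in ACAA2 (above), at 23.9 against 12.9 to 14.5, SDC1 (above), at 14.2 against 9.001 to 9.39 and ARHGAP19-SLIT1 (above), at 1.46 against 1.49e-30 to 3.82e-09. Tumor 5L stood apart in HEY2 (below), at 1.05 against 2.25 to 2.47 and MYC (below), at 4.31 against 5.703 to 5.92. Tumor 33L stood apart in CHRM3 (below), at 6.801 against 9.68 to 10.2, PSMG3 (below), at 8.54 against 9.59 to 9.63 and MYH1 (below), at 1.65 against 2.01 to 2.02. Tumor 33R stood apart in COL11A2 (above), at 1.97 against 1.23 to 1.33, CD68 (above), at 23.8 against 21.3 to 21.7 and LPL (above), at 2.16 against 1.25 to 1.39. Tumor 34R stood apart in SSR4 (above), at 42.3 against 38.6 to 38.8. The values of ARHGAP19-SLIT1 near 0 can be failed estimates, and it is given no fold.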

How the results depend on the processing

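The counts of 2200 higher and 2713 lower genes stayed within 1.5 times under 2 other pseudocounts, no filter or a filter on a mean of 1 FPKM, 3 other scalings, no mouse block, means of each mouse, only the 8 tumors with or without the block, flank as a term and robust moderation. With a mean FPKM of at least 5 as the filter, 1458 genes were higher. Scaling to a common sum gave 823 higher and 4654 lower genes, moved the median of all genes by -0.20, and turned GGPS1 to -0.025 and EIF4G3 to -0.0136. The share of lower calls was 84.97% there, 50.8% without short RNAs in the sum, 47.3% with the upper quartile and 50.01% with quantile normalization, against 55.2%. Leaving out 1 tumor or mouse gave 1233 to 2501 higher and 1637 to 2900 lower genes. The lowest counts were without mouse 33 (1197 and 1593 of them shared with the full set), and without control tumor 5L there were 1511 and 1942. Of 234 called named genes, 147 kept their call under all 27 alternatives and 87 lost it in at least 1. The causes were not tested. Tumors L and R of a mouse were blocked, but no paired analysis between groups was possible because control and J+V tumors came from different mice. The correlation of the block was slightly negative (-0.07), and the block made the test less strict. Without the block 2011 genes were higher and 2542 lower, and on means of each mouse 1705 and 2154, against 2200 and 2713 with it. Depth is unknown, so the precision of low FPKM could not be given.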
